A study of Mus musculus with 6 samples.

Results

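The 10 genes described here encode mouse MHC class I molecules and the machinery that loads them with peptide, and they were taken by symbol from the 21851 genes of the deposited tables: the heavy chain genes H2-K1, H2-D1, H2-Q4, H2-Q6, H2-Q7 and H2-T23, the light chain gene B2m, the loading genes Tap1 and Tapbp, and the regulator Nlrc5. Their RNA was compared in hematopoietic stem cells (HSCs) from bone marrow between 3 libraries from mice exposed to ionizing radiation (IR) and 3 libraries from control mice (Ctrl), all of WT genotype. The cells of both groups were sorted as lineage-negative, Sca-1-positive, c-Kit-positive, CD150-positive, Flt3-negative and CD48-negative cells. The sources used here do not give the strain, age or number of mice behind a library, the radiation dose or the time from exposure to sorting. H2 genes differ between mouse strains, so how well the reads of these mice matched the reference alleles was not tested. By its title the study concerns premature aging of HSCs, and the comparison asks how their RNA differs after irradiation.

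A class I molecule is a heavy chain that pairs with beta-2-microglobulin and carries a short peptide to the cell surface, where CD8 T cells and NK cells read it. The peptides are made by the proteasome, pumped into the endoplasmic reticulum (ER) by the TAP transporter, and loaded with the help of tapasin and ER chaperones. H2-K1 and H2-D1 encode the classical chains, H2-T23 encodes Qa-1, which presents leader peptides to NK cell receptors, and H2-Q7 belongs to the genes of the Qa-2 antigen. NLRC5 is a transactivator that binds class I promoters through factors on the SXY module, and interferons and NF-kB act on elements just upstream. Most nucleated cells express class I, blood stem cells included.

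Levels are given in FPKM (fragments per kilobase per 1000000 mapped fragments), and each library summed to between 485166 and 489838 FPKM. Steps between low values correspond to about 14340000 to 16280000 fragments per library. At that depth B2m rests on about 74614 to 91475 fragments in a library, H2-Q6 on about 1630 to 3230, Nlrc5 on about 383 to 656 and H2-Q4 on about 148 to 168, taking the longest protein-coding transcript of each. Counting error is therefore widest for H2-Q4 and Nlrc5. No pair of libraries in a group had an exactly equal value above 0 in any gene. Squared differences between the libraries of a pair were compared with counting noise over 836 genes with 1 transcript. Their median was 1.27 to 1.76 times that of counting noise alone, a ratio of variances. No label states that each library came from its own mice, so the p-values reflect only how these samples vary, which may be technical. RNA of the sorted proteins was as follows: Kit lay between 94.8 and 98.5 FPKM in all 6 libraries, Slamf1, which encodes CD150, at 4.58 to 5.46 FPKM in IR and 3.14 to 3.95 FPKM in Ctrl libraries, and Ly6a, which encodes Sca-1, averaged 157 ± 5.17 FPKM in IR and 203 ± 5.13 FPKM in Ctrl HSCs (SD, n = 3 each). RNA of Cd48 and Flt3, whose proteins the gate excludes, was present, with Cd48 at 352 ± 8.003 and 400.1 ± 3.36 FPKM and Flt3 at 65.7 ± 1.43 and 125 ± 1.58 FPKM in IR and Ctrl HSCs.

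Class I promoters carry a known run of elements, and the stretch that holds it is shown because heavy chain genes that share it differed in their response. Promoter windows of 300 bases (250 before to 50 after the start, RefSeq, GRCm38.p6) were found for 9 of the 10 members, all but Nlrc5. The motifs searched, on both strands, were GGGNNTTCC, a form of the kappaB site, TTTCNNTT, a core common to interferon response elements, TGACG, the core of the X2 box, and ATTGG, the inverted CCAAT of the Y box. N stands for any base, matches could overlap, and a match on the other strand reads as the reverse complement. Each sequence below starts 25 bases before the first interferon core, runs for 115 bases 5′ to 3′ on the strand of the gene, and has the matches in capitals.
H2-K1 (chr17:34000348-34000462, minus strand): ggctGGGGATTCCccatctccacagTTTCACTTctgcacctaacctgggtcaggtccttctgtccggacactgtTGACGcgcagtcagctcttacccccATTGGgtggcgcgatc
H2-D1 (chr17:35262919-35263033, plus strand): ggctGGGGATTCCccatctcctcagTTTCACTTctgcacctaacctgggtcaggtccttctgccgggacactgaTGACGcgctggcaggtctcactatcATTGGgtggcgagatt
H2-Q4 (chr17:35379439-35379553, plus strand): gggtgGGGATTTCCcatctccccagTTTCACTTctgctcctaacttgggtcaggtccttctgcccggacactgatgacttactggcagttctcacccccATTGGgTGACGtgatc
H2-Q6 (chr17:35424673-35424787, plus strand): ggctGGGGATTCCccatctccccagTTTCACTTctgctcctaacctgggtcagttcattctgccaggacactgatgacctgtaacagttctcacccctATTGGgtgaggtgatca
H2-Q7 (chr17:35439017-35439131, plus strand): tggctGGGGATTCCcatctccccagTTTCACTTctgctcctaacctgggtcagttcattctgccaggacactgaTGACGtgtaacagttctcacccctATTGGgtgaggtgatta
H2-T23 (chr17:36032736-36032850, minus strand): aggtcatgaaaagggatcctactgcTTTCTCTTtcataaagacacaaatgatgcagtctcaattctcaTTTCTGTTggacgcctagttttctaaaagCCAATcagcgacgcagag
B2m (chr2:122147525-122147639, plus strand): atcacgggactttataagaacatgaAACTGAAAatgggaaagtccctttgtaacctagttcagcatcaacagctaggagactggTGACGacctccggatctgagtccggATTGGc

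The kappaB form stood in 5 of the 9 member promoters, those of H2-K1, H2-D1, H2-Q4, H2-Q6 and H2-Q7, and in 1912 of all 32851 promoter windows (5.82%). Its count depends on the spelling, and 3 spellings were tried with the matches in view: with 1 more free base before the final CC it was 6 of 9, B2m added, and 4.79% of all windows, and with the exact 10 bases of H2-K1 it was 4 of 9, without H2-Q4, and 0.107% of all windows. The interferon core was found in 7 of the 9, the X2 core in 6 and the inverted CCAAT in 9, against 23.9%, 20.8% and 37.4% of all windows. These counts take a match anywhere in a window and in any order, so they do not count ordered X2 and Y boxes. In H2-Q4 each TGACG match lay after the ATTGG printed above. In Tap1 the only inverted CCAAT lay before the TGACG match. Between the interferon core and the Y box, H2-Q7 held the X2 core, and H2-Q6 and H2-Q4 did not. Of these genes H2-Q7 and H2-Q6 were higher in IR and H2-Q4 was not called. Whether the motifs bear on the response was not tested. The stretches of H2-Q6 and H2-Q7 were 96.6% identical, those of H2-K1 and H2-D1 88.7%, and those of H2-Q4 and H2-Q6 87.9%, whereas B2m and H2-K1 shared 47.3%. A match describes letters in these windows and not a bound site.

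The heavy chain genes also share transcript sequence, which bears on how well their values can be told apart. Cut into windows of 100 bases, 17.2% of the H2-Q7 transcript sequence and 10.8% of that of H2-Q6 stood also in a transcript of another gene in GENCODE M21, in the largest part each other's (9.34% and 8.36%). The shared part was 7.28% for H2-T23, 4.09% for H2-D1 and 2.66% for H2-Q4, and no 100-base window of H2-K1, B2m, Tap1 or Nlrc5 was shared. With windows of 50 bases the shared part grew to 34.9% for H2-Q7 and 32.0% for H2-Q6. Read length and the handling of reads with several matches were not given, so single H2-Q values are uncertain, and their sum is given beside them. Genes on the opposite strand also overlap B2m (Patl2), H2-T23 (A930015D03Rik), H2-Q4 (Gm11131), Tap1 (Psmb9), Tapbp (Gm19412) and Nlrc5 (9330175E14Rik), and whether reads were counted by strand is not given. Of these, Psmb9 alone passed the filter on low values, and it overlaps Tap1 by 212 bases. On the same strand, Zbtb22 overlaps Tapbp over 3422 bases and Mir7072 lies in Nlrc5 over 60 bases.

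**Figure D1:**
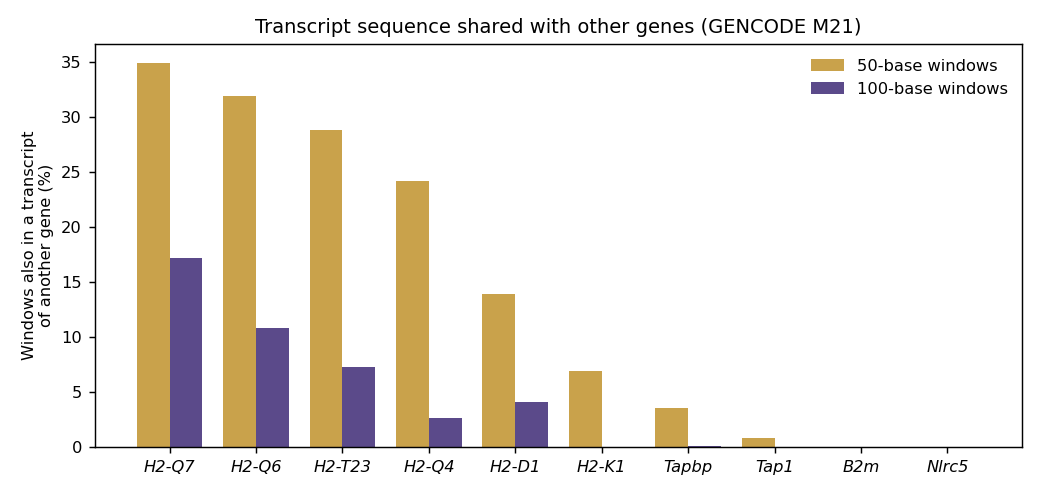
Share of the distinct 50-base (gold) and 100-base (purple) windows of each member's protein-coding transcripts that also occur in a transcript of another gene, in percent. H2-Q7 and H2-Q6 stand highest at both lengths, and B2m and Nlrc5 share no window at either.

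Class I genes did not move as a block after irradiation. Of the 10 members 4 were higher in IR HSCs (H2-Q7, H2-Q6, Nlrc5 and H2-K1), 4 were lower (H2-T23, Tapbp, B2m and H2-D1) and 2 were not called (H2-Q4 and Tap1). Differences were tested with limma on log2(FPKM + 1), with Benjamini-Hochberg adjustment over all 10281 genes that had at least 1 FPKM in at least 3 libraries and a threshold of 0.05, and all 10 members passed that filter. Of all tested genes 54.7% were called, 25.8% higher and 28.9% lower in IR, so the 8 called members out of 10 are to be read against a background in which most genes were called. The median log2 fold change was -0.02 over the members and -0.01 over all tested genes, and the median size of change without regard to direction was 0.13 and 0.14. In bulk RNA, fewer cells of a type and less RNA per cell cannot be told apart.

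The H2-Q pair stood out in size. H2-Q7 was at 115, 114 and 119 FPKM in the IR libraries and at 59.4, 57.9 and 57.4 FPKM in the Ctrl libraries. H2-Q6 was at 98.3, 99.1 and 103 FPKM in IR and at 61.4, 60.8 and 54.1 FPKM in Ctrl. Each IR library thus lay far above each Ctrl library for both genes, and no other member had so large a fold difference.

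Expressed as change, H2-Q7 doubled in IR HSCs, with a ratio of mean FPKM of 1.998 and a log2 fold change of 0.99 ± 0.027 SE (adjusted p = 3.84e-09 by limma). On the log2(FPKM + 1) scale 18 of the 10281 tested genes, H2-Q7 included, had a log2 fold change at least as high. That scale understates changes of genes at low levels, so this count holds for that scale alone. H2-Q6 had a ratio of 1.70 and a log2 fold change of 0.76 (SE 0.045, adjusted p = 6.96e-07 by limma with Benjamini-Hochberg adjustment). H2-Q4, of the same cluster, was at 5.62, 6.11 and 5.75 FPKM in IR and at 5.998, 5.76 and 6.11 FPKM in Ctrl libraries. The H2-Q4 ranges overlapped, and the 95% confidence interval of its log2 fold change ran from -0.14 to 0.08, which does not reach the values of H2-Q6 and H2-Q7. Summed over the 6 H2-Q rows used here, the level was 221, 222 and 230.0 FPKM in IR and 129, 126 and 120.0 FPKM in Ctrl libraries, a ratio of 1.79. The sum does not settle how reads were divided, since FPKM is also divided by transcript length. H2-Q5, which shares 7.87% of the 100-base windows of H2-Q7, is also not in the sum. H2-Q8 and H2-Q9, also searched for, had no row under those symbols and no transcript of that name in GENCODE M21. The shared parts given above therefore do not cover H2-Q8 and H2-Q9, and their reads could not be told apart here. H2-Q1, outside the members and named with its values known, was at 1.72 to 1.93 FPKM in IR and 1.73 to 2.22 FPKM in Ctrl libraries, and H2-Q2 and H2-Q10 stayed under 0.2 FPKM in every library. H2-Q4, H2-Q6 and H2-Q7 lie in this order on the plus strand of chromosome 17 (GRCm38), at 35379617 to 35385290, 35424850 to 35430055 and 35439155 to 35443773.

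**Figure D2:**
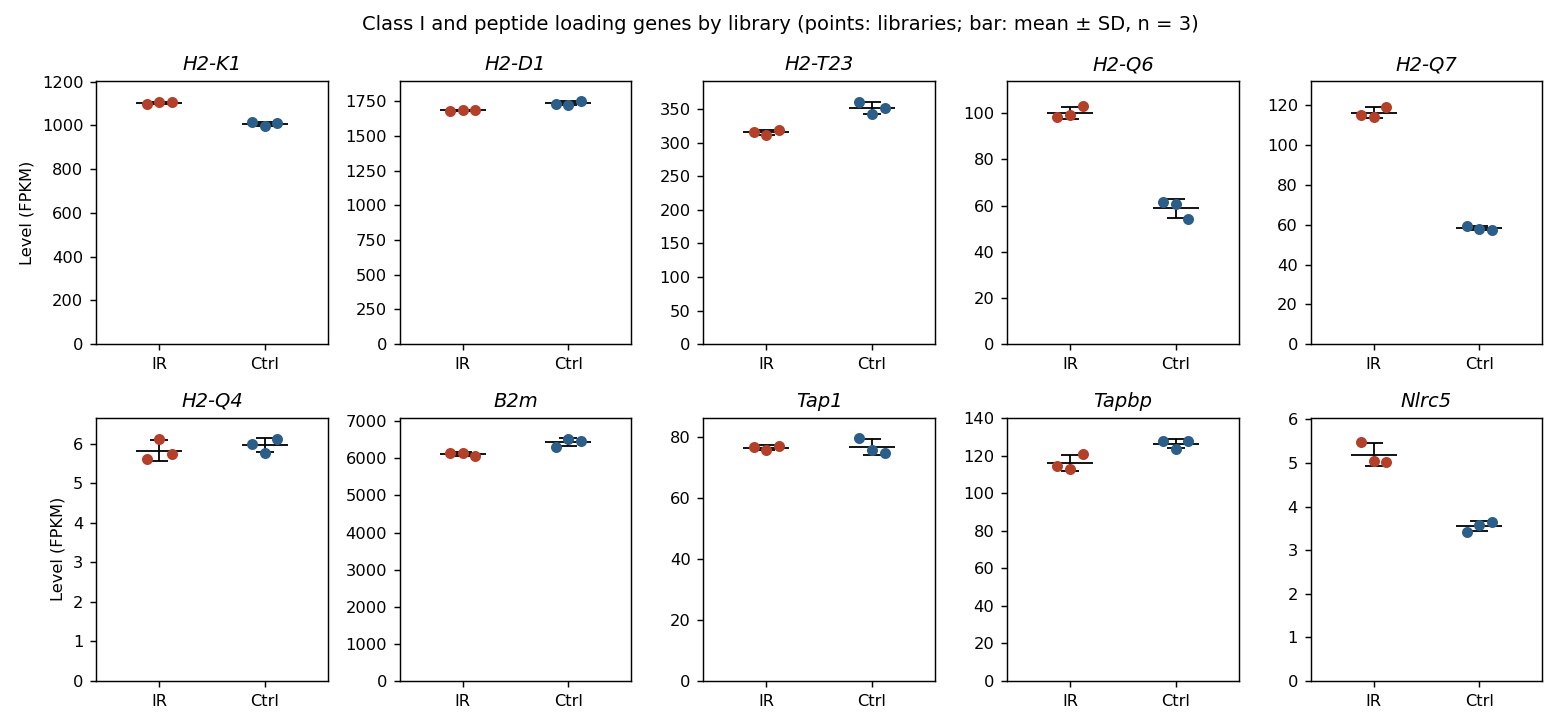
FPKM of the 10 genes in each library, IR left and Ctrl right in each panel, on linear axes from 0. Points are libraries and bars are the mean ± SD of 3 libraries. H2-Q6, H2-Q7 and Nlrc5 show the widest gaps between the groups, and the groups overlap in H2-Q4 and Tap1.

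The classical heavy chains differed little and in opposite directions. H2-K1 (chromosome 17, 33996017 to 34000347, minus strand) was at 1099, 1106 and 1106 FPKM in IR HSCs and at 1013, 995 and 1009 FPKM in Ctrl HSCs. All IR libraries lay above all Ctrl libraries, by 9.71% in the mean (log2 fold change 0.13 ± 0.015 SE, adjusted p = 5.64e-05 by limma). H2-D1 (chromosome 17, 35262730 to 35267499) was at 1679, 1684 and 1690 FPKM in IR and at 1733, 1721 and 1751 FPKM in Ctrl HSCs. The H2-D1 ranges were apart as well, with IR lower by 2.92% (log2 fold change -0.04, adjusted p = 0.027 by limma), and this call was lost in 4 of the 6 fits that leave out a library (adjusted p = 0.0641 without Ctrl replicate 1 and 0.119 without Ctrl replicate 3, 0.0664 without IR replicate 1 and 0.0532 without IR replicate 3). Within a library the ratio of H2-K1 to H2-D1, which does not depend on library scaling, was 0.654, 0.657 and 0.654 in IR and 0.585, 0.578 and 0.576 in Ctrl libraries. Ranges that do not overlap were found in 61.7% of all tested genes, so this separation alone is common in these data.

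Of the nonclassical chain genes outside the H2-Q cluster, H2-T23, H2-M3 and H2-T22 were lower. H2-T23 (chromosome 17, 36029773 to 36032855) was at 316, 312 and 319 FPKM in IR HSCs and at 360.1, 343 and 352 FPKM in Ctrl HSCs. Its highest IR library lay under its lowest Ctrl library, and the mean ratio was 0.898 (log2 fold change -0.15, SE 0.022, limma adjusted p = 2.60e-04). Among the 29 other heavy chain genes listed for the H2 region, 22 were in the tables and 4 passed the filter, of which 2 fell and none rose. Over all tested genes 28.9% were called lower and 25.8% higher. H2-M3, which presents formylated peptides, averaged 44.4 ± 1.73 FPKM in IR and 51.6 ± 1.503 FPKM in Ctrl HSCs (SD, n = 3 each), and H2-T22, which gamma-delta T cells recognise, averaged 29.2 ± 1.16 and 32.4 ± 0.789 FPKM in these groups. H2-T24 was not called, at 3.79 ± 0.187 FPKM in IR and 4.25 ± 0.360 FPKM in Ctrl HSCs, and was called lower without Ctrl replicate 3 (adjusted p = 0.0359 by limma). The H2-M1, H2-M2, H2-M5, H2-M9, H2-M10 and H2-M11 genes were listed at 0 in all libraries.

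The makeup of the heavy chain RNA differed between the groups more than its sum did. Summed over the 28 heavy chain rows of the tables, the level was 3392, 3400.1 and 3426 FPKM in IR and 3323, 3273 and 3323 FPKM in Ctrl libraries, a ratio of 1.03. H2-D1 made up 49.5% ± 0.115 of the sum in IR and 52.5% ± 0.291 in Ctrl libraries, H2-K1 32.4% ± 0.128 and 30.4% ± 0.0618, and H2-T23 9.27% ± 0.0855 and 10.63% ± 0.188 (SD, n = 3 each, IR before Ctrl). All H2-Q genes together made up 6.52%, 6.52% and 6.72% in IR and 3.89%, 3.86% and 3.61% in Ctrl libraries. The ratio of H2-Q7 to H2-Q6 was also higher in IR, at 1.17, 1.15 and 1.16, than in Ctrl, at 0.966, 0.953 and 1.06, a difference that the shared sequence of the pair leaves uncertain. No test was run on these sums and shares.

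**Figure D3:**
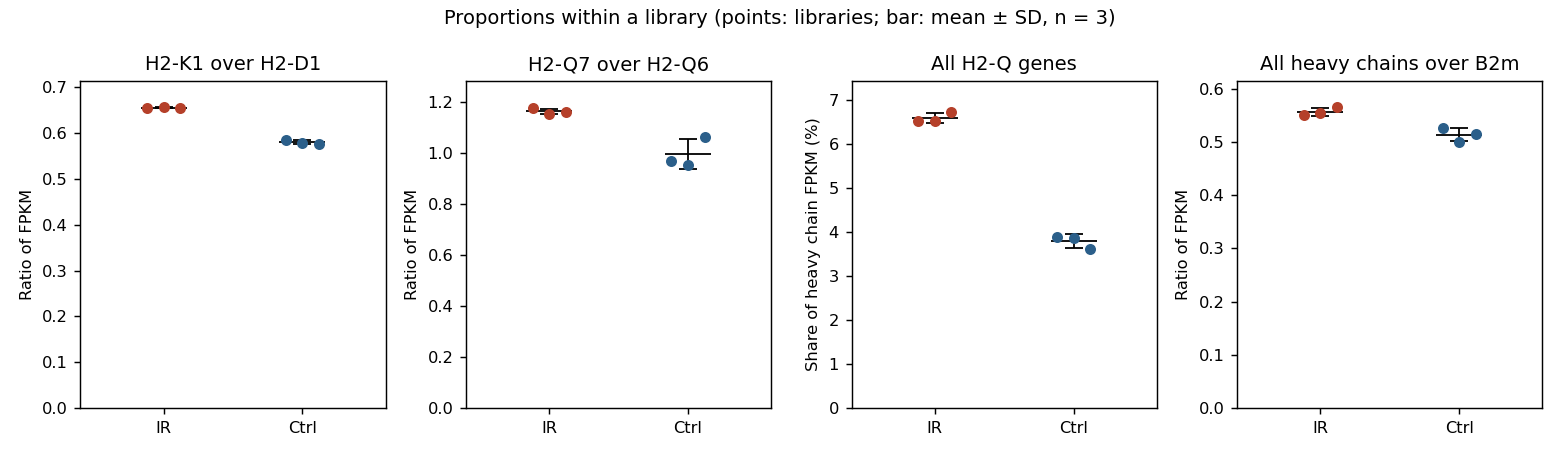
Proportions computed within each library, IR left and Ctrl right: H2-K1 over H2-D1, H2-Q7 over H2-Q6, the share of the summed heavy chain FPKM held by all H2-Q genes in percent, and the summed heavy chains over B2m. Points are libraries and bars the mean ± SD of 3. All 4 proportions are higher in each IR library than in each Ctrl library, most of all the H2-Q share, at 6.58% and 3.79% in the mean.

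The light chain gene B2m had the highest FPKM of all genes in each of the 6 libraries. It was at 6157, 6137 and 6050.3 FPKM in IR HSCs and at 6318, 6534 and 6455 FPKM in Ctrl HSCs. Each IR library lay under each Ctrl library, by 4.98% in the mean (log2 fold change -0.07 ± 0.015 SE, adjusted p = 0.00221 by limma), and the call was lost with a constant prior variance (adjusted p = 0.0759). B2m lies on chromosome 2, apart from the heavy chains on chromosome 17. The summed heavy chains stood at 0.551, 0.554 and 0.566 of the B2m FPKM in IR libraries and at 0.526, 0.501 and 0.515 in Ctrl libraries.

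The peptide transporter and tapasin did not rise with H2-K1 and the H2-Q pair. Tap1, a subunit of the peptide transporter (chromosome 17, 34187553 to 34197225), was at 76.8, 75.6 and 76.9 FPKM in IR and at 79.6, 75.7 and 74.8 FPKM in Ctrl HSCs. The ranges overlapped, and the 95% confidence interval of its log2 fold change ran from -0.07 to 0.06. Tap2, its partner subunit, chosen after its values were seen, averaged 110.4 ± 1.78 FPKM in IR and 110.6 ± 1.94 FPKM in Ctrl HSCs (SD, n = 3 each), and the ratio of Tap1 to Tap2 was 0.692 ± 0.0160 and 0.693 ± 0.0113 in these groups. Tapbp, which encodes tapasin, the bridge between the transporter and the empty heavy chain (chromosome 17, 33915899 to 33929292), was at 115, 113 and 121 FPKM in IR and at 128, 123 and 128 FPKM in Ctrl HSCs. Tapbp ranges did not overlap, and IR was lower by 8.16% (log2 fold change -0.12, SE 0.029, limma adjusted p = 0.00547). Zbtb22, which overlaps it on the same strand, was also lower, with a log2 fold change of -0.23 (limma adjusted p = 0.0117), and its part in the Tapbp value was not tested.

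Nlrc5, the class I transactivator (chromosome 8, 94434356 to 94527272), was low in both groups and higher in IR. It was at 5.49, 5.05 and 5.03 FPKM in IR HSCs, against 3.43, 3.58 and 3.64 FPKM in Ctrl HSCs. All IR libraries lay above all Ctrl libraries, with a ratio of mean FPKM of 1.46 and a log2 fold change of 0.44 ± 0.054 SE (adjusted p = 8.25e-05 by limma). The log2(FPKM + 1) scale understates changes at such levels: with a pseudocount of 0.1 the log2 fold change was 0.53. In rank Nlrc5 lay between the 19.8 and 30.2 percentiles of tested genes in a library, B2m, H2-K1 and H2-D1 at or above the 99.5, H2-T23 at or above the 97.5, and H2-Q4 between the 30.8 and 32.5.

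**Figure D4:**
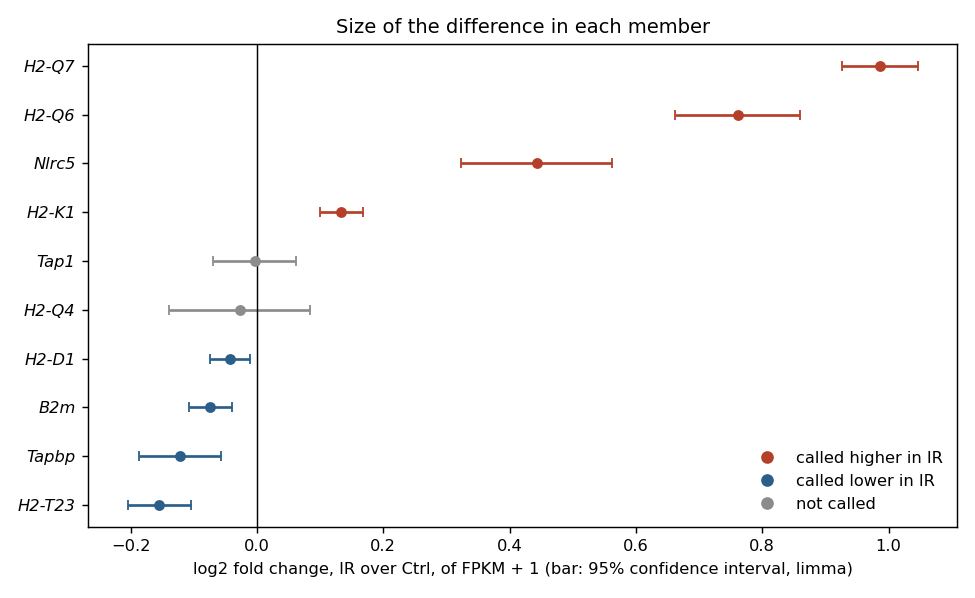
Log2 fold change of FPKM + 1, IR over Ctrl, of each member with its 95% confidence interval from limma, on the horizontal axis. Red marks genes called higher in IR, blue genes called lower and grey genes not called. H2-Q7 at 0.99, H2-Q6 at 0.76 and Nlrc5 at 0.44 lie apart from the other 7, which lie between -0.15 and 0.13.

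Among all tested genes outside the members, Ei24, Dkc1 and Atp6v0b had the profile over the 6 libraries nearest to that of H2-K1 (Euclidean distance of centred log2(FPKM + 1) profiles 0.0162, 0.0206 and 0.0231). Ybx3, Dynlt1b and Wdfy1 were nearest to H2-Q7, at distances of 0.109, 0.116 and 0.121, and Gm5141, AW146154 and St13 to Nlrc5, at 0.0603, 0.0606 and 0.0723. Ybx3 averaged 74.8 ± 1.34 FPKM in IR and 35.9 ± 0.955 FPKM in Ctrl HSCs (SD, n = 3 each). With 6 libraries in 2 groups, such nearness reflects mostly a like difference between the groups.

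The wider pathway was described through 9 lists with 118 genes, of which 107 were in the tables and 73 were tested. Of these 16 rose, 28 fell and 29 were not called, against 25.8% higher and 28.9% lower among all tested genes. The lists differed in direction, as the plot of the other pathway genes shows.

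ER folding factors that serve class I were higher, while the rest of the loading list was not called. In the list of other loading and folding factors 6 of 9 rose and none fell, with a median log2 fold change of 0.19. Among all tested genes 25.8% were called higher and 28.9% lower. Calr, the chaperone calreticulin of the loading complex, averaged 520.0 ± 6.27 FPKM in IR and 397 ± 2.80 FPKM in Ctrl HSCs (SD, n = 3 each), Pdia3, the ERp57 disulfide isomerase, 380.1 ± 4.62 and 299 ± 6.36 FPKM, and Canx, which encodes calnexin, 110.2 ± 1.23 and 89.2 ± 0.468 FPKM in these groups. All of these factors also fold other glycoproteins. Tap2 and Tapbpl, which serve class I alone, were not called. Bcap31, also in this list and named with its values known, was not called either (log2 fold change -0.04, limma adjusted p = 0.19). In the list of peptide trimming peptidases 5 of 8 rose and none fell, against the same shares of all tested genes. What each peptidase does to class I peptides was not tested. Thop1 averaged 34.3 ± 0.433 FPKM in IR and 21.997 ± 0.247 FPKM in Ctrl HSCs. In these groups Lap3 averaged 51.2 ± 1.43 and 39.9 ± 1.36 FPKM, and Npepps 6.27 ± 0.383 and 4.64 ± 0.0970 FPKM. Erap1, the ER peptidase best known for class I peptides, chosen after its values were seen, was not called, at a log2 fold change of -0.005.

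The immunoproteasome list was nearly flat. It held 9 genes, with 1 call in each direction and log2 fold changes from -0.13 to 0.14. Among all tested genes 25.8% were called higher and 28.9% lower. The 2 called genes were subunits of the constitutive proteasome: Psmb5 averaged 383 ± 6.98 FPKM in IR and 347 ± 6.05 FPKM in Ctrl HSCs, and Psmb6 399.98 ± 7.02 and 437 ± 10.07 FPKM (SD, n = 3 each). Psmb7 was not called, at 109.6 ± 6.25 and 116 ± 1.54 FPKM, and was called lower without IR replicate 1 (adjusted p = 0.0441 by limma). The interferon-inducible subunits Psmb8, Psmb9 and Psmb10, singled out with their values known, were not called either, at log2 fold changes of 0.04, 0.04 and 0.02. Psmb9 is a head-to-head neighbour of Tap1.

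**Figure D5:**
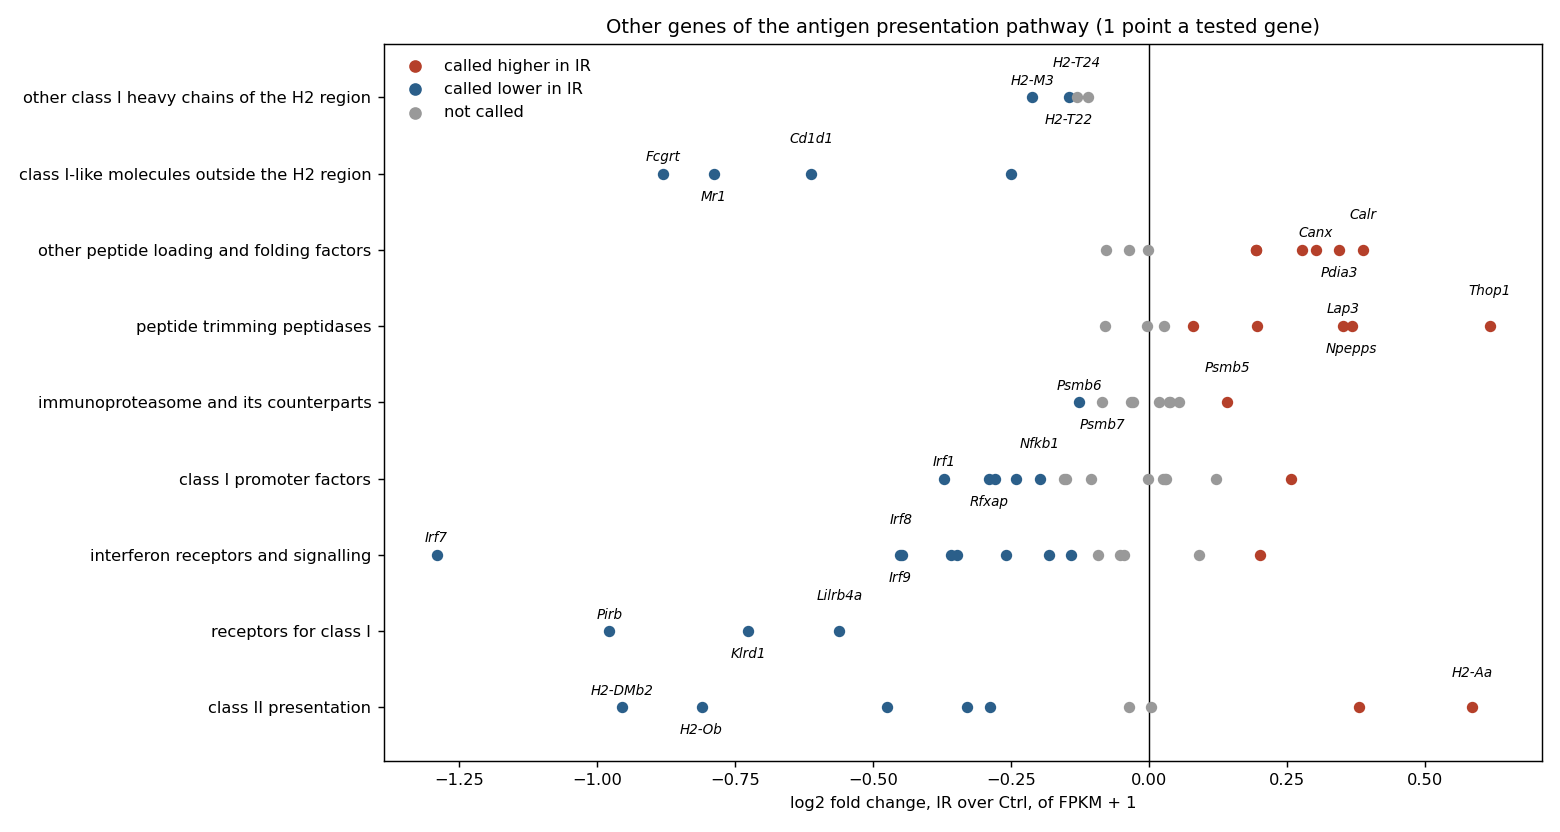
Log2 fold change of FPKM + 1, IR over Ctrl, of each tested gene in the 9 other lists of the pathway. Red points were called higher in IR, blue points lower and grey points not called, and the 3 genes with the smallest p in each list are named. Folding factors and peptidases lie to the right, class I-like molecules, receptors for class I and most interferon signalling genes to the left.

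The list of 14 factors that act on class I promoters had 1 riser, Atf1, named with its values known (log2 fold change 0.26). In it 5 fell and 8 had no call, against 25.8% higher and 28.9% lower among all tested genes. Irf1, an interferon regulatory factor that binds the interferon element, averaged 43.7 ± 0.352 FPKM in IR and 56.8 ± 1.29 FPKM in Ctrl HSCs (log2 fold change -0.37, limma adjusted p = 4.09e-06). Rfxap, a subunit of the RFX complex on the X box, averaged 18.6 ± 0.509 and 22.9 ± 0.654 FPKM, and Nfkb1 49.8 ± 0.492 and 57.3 ± 0.706 FPKM in these groups (SD, n = 3 each).

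Of 13 interferon receptor and signalling genes, 8 were lower and 1 was higher, with a median log2 fold change of -0.18. Among all tested genes 28.9% were called lower and 25.8% higher. Irf7 had a log2 fold change of -1.29, Irf9 of -0.45 and Irf8 of -0.45. The receptor subunits Ifnar1, Ifnar2, Ifngr1 and Ifngr2 were among those that fell, named with their values known, by log2 fold changes between -0.36 and -0.14. The H2-Q pair, H2-K1 and Nlrc5 thus rose in libraries in which Irf1, Irf7, Irf8 and Irf9 were lower.

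Class I-like molecules encoded outside the H2 region fell in all 4 tested cases of 8 listed, against 28.9% called lower among all tested genes. Cd1d1, which presents lipids to NKT cells, averaged 39.0 ± 0.744 FPKM in IR and 60.1 ± 0.377 FPKM in Ctrl HSCs (log2 fold change -0.61, limma adjusted p = 1.31e-07). Fcgrt, the heavy chain of the neonatal Fc receptor, averaged 9.62 ± 0.373 and 18.6 ± 1.17 FPKM, and Mr1, which presents vitamin B metabolites, 7.18 ± 0.726 and 13.1 ± 0.127 FPKM in these groups (SD, n = 3 each). Like the heavy chains of the H2 region these molecules pair with beta-2-microglobulin.

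Genes listed as receptors for class I were low. Of 18 listed 3 were tested, and all 3 fell: Pirb, an inhibitory receptor of myeloid and B cells, averaged 1.83 ± 0.270 FPKM in IR and 4.55 ± 0.208 FPKM in Ctrl HSCs, Lilrb4a 2.09 ± 0.256 and 3.55 ± 0.158 FPKM, and Klrd1, the CD94 chain of the receptor for Qa-1, 0.824 ± 0.297 and 2.002 ± 0.323 FPKM (SD, n = 3 each). Klrd1 passed the filter through the Ctrl libraries, so its count adds nothing. Among all tested genes 28.9% were called lower in IR. A place in the list does not show class I binding, which was not tested for Lilrb4a. Class II presentation genes went both ways, with 2 of 9 higher and 5 lower, against 25.8% and 28.9% of all tested genes. H2-Aa averaged 41.3 ± 2.74 FPKM in IR and 27.2 ± 0.952 FPKM in Ctrl HSCs. In these groups H2-Ob averaged 22.1 ± 1.44 and 39.4 ± 0.278 FPKM and H2-DMb2 4.99 ± 0.756 and 10.56 ± 0.320 FPKM.

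Levels of markers of other cells are given because those cells can express class I too. The summed level of 8 neutrophil markers was 79.7 to 82.1 FPKM in IR and 129 to 132 FPKM in Ctrl libraries, that of 8 monocyte and macrophage markers 226 to 240.3 and 248 to 254 FPKM, that of 6 B cell markers 55.7 to 56.3 and 71.0 to 78.0 FPKM, and that of 8 dendritic cell markers, Flt3 included, 170.3 to 178 and 235 to 242 FPKM. The 9 T and NK cell markers in the tables summed to 647 to 656 FPKM in IR and 529 to 552 FPKM in Ctrl libraries, of which Nkg7 held at least 523 FPKM. The 8 erythroid markers went both ways, summing to 61.9 to 78.0 FPKM in IR and 68.5 to 74.3 FPKM in Ctrl libraries: Klf1, an erythroid transcription factor, averaged 10.41 ± 1.16 FPKM in IR and 4.73 ± 1.19 FPKM in Ctrl HSCs, and the beta globin gene Hbb-bs 5.94 ± 0.627 and 13.2 ± 0.707 FPKM (SD, n = 3 each). The 10 endothelial and stromal markers summed to 42.7 to 45.6 FPKM in IR and 57.0 to 59.6 FPKM in Ctrl libraries. Among defining markers, Cd3g was listed at 0 in all libraries, and Cd3e, Cd8a, Ncr1, Pax5 and Ly6g stayed under 0.2 FPKM. Their part in the class I values was not tested.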

How the data were processed

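RNA of sorted HSCs was extracted with a kit for small samples and made into stranded mRNA libraries, per the labels' protocols. The authors deposited 1 table per library with 1 value per gene symbol. The submitters' processing notes name fastp, HISAT2 and StringTie and the builds GRCm38 and mm10. The sources used here give neither versions, annotation nor settings. The deposited values have no unit in their header and were taken as FPKM from their range and StringTie's usual output. Of 21878 rows, 27 with a calendar date in place of a symbol were left out.

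Groups follow the sample titles. IR was compared with Ctrl by limma 3.58.1 in R 4.3.3 (log2 of FPKM + 1, empirical Bayes with trend, 2-sided, no replicate block) on the whole table, after a test on simulated data. FPKM carry no counts, so no count model was used. Depth was estimated from whole-fragment steps of genes with 1 transcript in GENCODE M21. Alternatives were pseudocounts of 0.1 and 5, no filter and a filter of 5 FPKM, rescaling by median ratio or to TPM, a replicate block, a constant prior variance, summed H2-Q rows and leaving out each library. Shared windows came from GENCODE M21 transcripts, and motifs and identities (Biopython 1.88) from RefSeq promoters, with the farthest upstream start where a gene had several.

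Named genes are the 10 members, the 3 tested genes with the smallest p in each other list and the 3 nearest profiles of H2-K1, H2-Q7 and Nlrc5. The members and lists were chosen with earlier results of these data known, so their direction is no independent evidence. The spelling of the kappaB motif was changed after matches were seen, and all 3 spellings are reported. The values of 1 listed gene are not reported here.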

Additional observations from a re-analysis of the deposited data

How the results depend on the processing

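Of the 15 alternative settings, none changed the direction or the call of H2-Q7 (log2 fold change at least 0.94), H2-Q6 (0.70 to 0.79), H2-K1 (0.13 to 0.14), Nlrc5 (0.25 to 0.53), H2-T23 (-0.17 to -0.14) or Tapbp (-0.15 to -0.10). H2-Q6 and H2-Q7 have no value of their own where the H2-Q rows were summed. Tap1 was not called in any setting. With single libraries left out its log2 fold change ran from -0.0215 to 0.0235, and it was above 0 at 0.00445 without IR replicate 2 and at 0.0235 without Ctrl replicate 1. With a constant prior variance, 2 members were lower in place of 4, since B2m and H2-D1 lost their calls (adjusted p = 0.0759 and 0.238 by limma). The H2-D1 call was also lost without a filter on low values (adjusted p = 0.0785). The median over the members ranged from -0.0305 to 0.0004 when single libraries were left out. Under the filter of 5 FPKM, Nlrc5 passed through the IR libraries alone. The IR over Ctrl log2 ratios of the heavy chain sums moved by less than the spread between replicates under rescaling, and those of sums and shares likewise when single libraries were left out. Shares within a library cannot change under rescaling.

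The sample titles number the replicates of the 2 groups but do not say whether same-numbered libraries were handled together. Deviations from the group means correlated at 0.0326, -0.0134 and -0.0359 for same-numbered libraries over 7082 genes. Not every library correlated best with its own number. With 3 libraries in a group, such correlations cannot settle whether the libraries were paired. With a replicate block, 4 members were higher and 3 lower, H2-D1 being the call lost (adjusted p = 0.0591).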
